A study of Mus musculus with 9 samples.

Results

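Imprinted genes outside the Dlk1-Dio3 locus were followed in E14 cells, a line of mouse embryonic stem cells, exposed to 5-ITu, an analogue of adenosine used as an inhibitor of Haspin kinase. The genes were chosen by name, with earlier results of these data known: H19, Igf2r, Peg3, Peg10, Mest, Grb10, Phlda2, Impact, Nnat and Plagl1. Each was read from its brightest probe set over the arrays that names that gene alone. Of these 10 genes, 7 had such a probe set among the 10476 deposited, out of 8625 genes with one, and all 7 were among the 9911 probe sets tested. H19, Nnat and Plagl1 were not analysed here.

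The cells were kept undifferentiated in serum and LIF and were exposed for 26 h to the solvent DMSO alone or to 5-ITu at 0.1 μM or at 1.0 μM. All groups are the same line, and the labels give no genetic alteration in any of them. Total RNA of 3 samples per group was read on the Affymetrix platform Mouse Gene 2.0 ST, 1 array a sample, for a total of 9. The methods state that the samples of a group were biological replicates. Values are log2 signals, and a probe set counted as above background over 8.46, the log2 of the threshold given in the methods.

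Imprinted genes are transcribed mainly from the copy inherited from 1 parent, and DNA methylation laid down in the egg or sperm marks which copy that is. They lie in clusters around imprint control regions, where the zinc finger protein ZFP57 with TRIM28 protects the methylated copy from erasure after fertilization. Many of them set growth: paternally expressed genes such as Igf2 and Mest tend to promote it, and maternally expressed genes such as Igf2r, Grb10 and Phlda2 tend to restrain it. Embryonic stem cells in culture are known to gain or lose these marks. The arrays give the summed RNA of both copies, so nothing here tells the parental alleles apart.

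The DNA just upstream of a gene's start is shown for 4 of these genes: Peg3 and Grb10, which fell at 1.0 μM, Phlda2, which rose at 0.1 μM, and Mest, which holds the hexamer that methylated imprint control regions share. Each stretch is the 250 bases before the annotated start in RefSeq on GRCm38.p6, read 5′ to 3′ on the gene's strand, with each copy of the hexamer TGCCGC on either strand (GCGGCA on the other strand) in capitals.
Peg3, chr7:6730420-6730669, minus strand: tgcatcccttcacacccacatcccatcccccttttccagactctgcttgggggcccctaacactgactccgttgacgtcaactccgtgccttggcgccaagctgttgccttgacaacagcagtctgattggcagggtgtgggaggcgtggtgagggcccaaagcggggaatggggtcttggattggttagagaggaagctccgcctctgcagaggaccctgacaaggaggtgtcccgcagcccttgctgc
Grb10, chr11:12037421-12037670, minus strand: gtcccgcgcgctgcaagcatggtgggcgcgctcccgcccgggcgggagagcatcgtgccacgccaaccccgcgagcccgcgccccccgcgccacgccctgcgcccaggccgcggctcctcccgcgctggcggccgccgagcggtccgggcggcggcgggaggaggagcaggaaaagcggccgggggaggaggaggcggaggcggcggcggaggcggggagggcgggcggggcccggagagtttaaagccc
Phlda2, chr7:143502525-143502774, minus strand: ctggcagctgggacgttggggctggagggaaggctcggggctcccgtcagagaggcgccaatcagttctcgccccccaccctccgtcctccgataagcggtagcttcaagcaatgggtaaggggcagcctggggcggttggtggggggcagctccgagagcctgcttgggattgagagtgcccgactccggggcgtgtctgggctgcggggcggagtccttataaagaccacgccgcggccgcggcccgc
Mest, chr6:30737800-30738049, plus strand: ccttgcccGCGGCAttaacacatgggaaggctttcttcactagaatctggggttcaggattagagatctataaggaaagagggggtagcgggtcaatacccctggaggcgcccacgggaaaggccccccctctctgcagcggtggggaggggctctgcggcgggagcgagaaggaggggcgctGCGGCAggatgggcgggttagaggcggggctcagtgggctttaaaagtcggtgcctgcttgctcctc

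TGCCGC is the sequence that ZFP57 binds when its CpG is methylated. In windows from 250 bases before to 50 bases after a start, 7 of the 10 genes had 10 windows, and 5 of these (50%) held TGCCGC on either strand, compared with 11.6% of all 32851 windows and 18.6% of 59 windows of other imprinted genes. Mest had copies at positions -242 and -67 from the start shown. A pair of its windows overlap almost fully, so the same copies are counted in both, which raises the 50%. A further window of Mest and a further window of Grb10 held none. Grb10 had a copy at position 24, beyond the stretch shown, Plagl1 at -90 and Nnat at 27. No copy lay in the windows of Peg3, Phlda2 or Igf2r, which says only that these letters are absent from them. The windows of these genes were also rich in CpG, with a median of 17 CpG compared with 14 in windows of other imprinted genes and 7 in all windows, and the hexamer holds a CpG itself. Peg10, H19 and Impact had no sequence shown. A match is a description of the letters, not of binding.

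All 7 measured genes lay above the threshold on all 9 arrays, and their lowest values lay between 1.495 and 2.998 above it on the log2 scale. Levels cannot be compared between genes on an array, so each gene was compared with itself across the groups. At 1.0 μM against DMSO, 3 of 7 genes fell (42.9%), where 27.7% of all tested probe sets were called and 14.3% fell. The genes that fell were Peg3, Impact and Grb10. At 0.1 μM, 1 of 7 rose (14.3%), Phlda2, where 6.23% of all probe sets were called and 4.66% rose. At 1.0 μM against 0.1 μM, 4 of 7 were lower (57.1%), where 29.7% were called and 17.4% were lower, and these were Peg3, Grb10, Phlda2 and Impact. The same 4 genes passed limma's moderated F over the 3 groups, as did 35.3% of all probe sets. At an unadjusted limma p under 0.05 and a fold over 1.5, the size used in the methods, 1 of 7 passed between the doses, Peg3, as did 2.87% of all probe sets. None of the 7 did so against DMSO, where 2.97% of all probe sets passed at 1.0 μM and 0.706% at 0.1 μM, although 4 and 3 of them had an unadjusted limma p under 0.05. Both doses were compared with the same DMSO arrays. In bulk RNA, fewer cells of a type and less RNA per cell cannot be told apart.

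**Figure D1:**
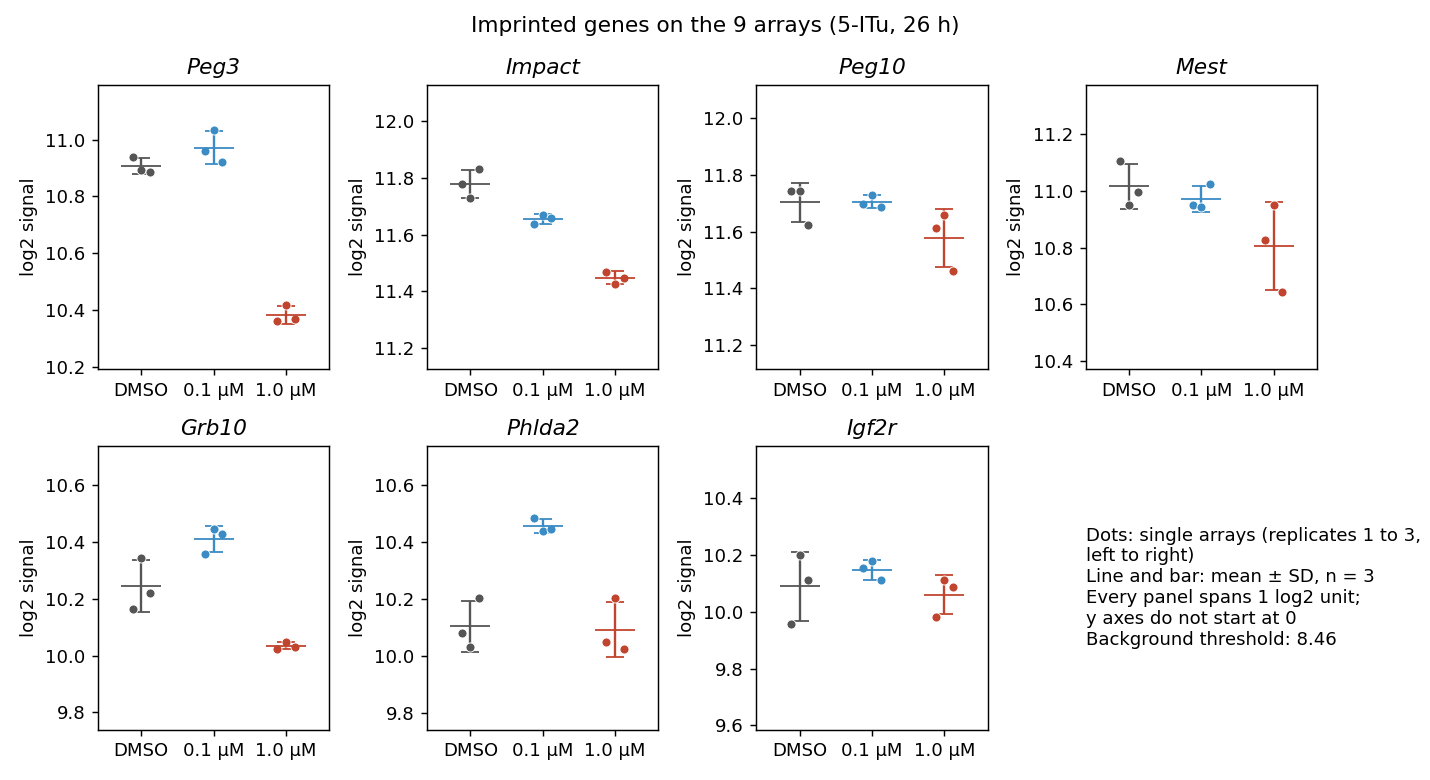
Log2 signal of the 7 measured imprinted genes on each array, by group (DMSO alone, 5-ITu at 0.1 μM, 5-ITu at 1.0 μM), with a point for each array and a line at the group mean. The Peg3 arrays at 1.0 μM sit between 10.36 and 10.42, below all other Peg3 values, and the Phlda2 arrays at 0.1 μM sit between 10.44 and 10.49, above all other Phlda2 values.

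Peg3 encodes a large zinc finger protein expressed from the paternal copy, known for its role in maternal behaviour and fetal growth in mice. Its log2 signal was 10.94, 10.89 and 10.89 in DMSO, 10.96, 11.03 and 10.92 at 0.1 μM, and 10.36, 10.42 and 10.37 at 1.0 μM. The 1.0 μM arrays lay below the others with no overlap, while the 0.1 μM and DMSO arrays overlapped. Group means were 10.91 ± 0.0286, 10.97 ± 0.0574 and 10.38 ± 0.0314 (SD, n = 3). At 1.0 μM Peg3 fell by 0.52 on the log2 scale (SE 0.0456, limma adjusted p = 0.000133), which is 1.44-fold lower, and the linear signal fell by 30.5%. Against 0.1 μM it was 1.504-fold lower (limma adjusted p = 8.94e-05). The change at 0.1 μM was 0.06, with a 95% interval of -0.04 to 0.17 (limma adjusted p = 0.417). Peg3 had the largest change of the 7 genes, and it was seen at the higher dose.

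Impact is expressed from the paternal copy in mice and encodes a protein that competes for GCN1 and so restrains the amino acid sensing kinase GCN2. Its log2 signal was 11.78, 11.73 and 11.83 in DMSO, 11.64, 11.67 and 11.66 at 0.1 μM, and 11.47, 11.42 and 11.45 at 1.0 μM. No array of a group overlapped those of another group, and the order was DMSO highest and 1.0 μM lowest. At 1.0 μM Impact fell by 0.33 (SE 0.0427, limma adjusted p = 0.000655), and the linear signal fell by 20.5%. At 0.1 μM the change was -0.12 with an adjusted p of 0.109 in limma, so it did not pass. The 1.0 μM arrays were also lower than the 0.1 μM arrays, by a change of -0.21 (limma adjusted p = 0.00679).

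Grb10 encodes an adaptor that binds the insulin and IGF1 receptors and restrains growth, and it is expressed from the maternal copy in most tissues. Its log2 signal was 10.17, 10.34 and 10.22 in DMSO, 10.36, 10.44 and 10.43 at 0.1 μM, and 10.02, 10.05 and 10.03 at 1.0 μM. The 3 groups did not overlap, with 0.1 μM highest and 1.0 μM lowest. At 1.0 μM Grb10 fell by 0.21 (SE 0.0534, limma adjusted p = 0.0175), and the linear signal fell by 13.5%. At 0.1 μM the change was 0.17 (SE 0.0534) and did not pass (limma adjusted p = 0.0922). The doses differed directly, with a change of -0.38 between them (limma adjusted p = 0.00119). The call at 1.0 μM was lost when DMSO and 1.0 μM were fitted alone (adjusted p = 0.0548), and over all alternatives its adjusted p ranged from 0.0103 to 0.0548. The change at 0.1 μM passed without DMSO replicate 2 (adjusted p = 0.0377), the highest DMSO array, and with array weights (adjusted p = 0.0358).

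Phlda2 encodes a small pleckstrin homology protein, expressed from the maternal copy, that is known to limit growth of the placenta. Its log2 signal was 10.08, 10.03 and 10.20 in DMSO, 10.49, 10.44 and 10.45 at 0.1 μM, and 10.05, 10.20 and 10.02 at 1.0 μM. The 0.1 μM arrays lay above all the others, and the DMSO and 1.0 μM arrays overlapped. At 0.1 μM Phlda2 rose by 0.35 (SE 0.0623, limma adjusted p = 0.0141), or 27.7% more signal. At 1.0 μM the change was -0.01, with a 95% interval of -0.15 to 0.13 (limma adjusted p = 0.902), and against 0.1 μM it was -0.37 (limma adjusted p = 0.00287). The rise at 0.1 μM was lost in the fit without the moderated variance (adjusted p = 0.0506). It was also lost without 0.1 μM replicate 1 (adjusted p = 0.0636), replicate 2 (0.0574) or replicate 3 (0.0561), while its size stayed within 0.34 and 0.36. Without DMSO replicate 1, 2 or 3 it passed, and over all alternatives its adjusted p ranged from 0.00663 to 0.0636.

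Mest, Peg10 and Igf2r did not pass in any comparison. Mest, a paternally expressed member of the alpha/beta hydrolase family, had log2 signals of 11.10, 10.95 and 10.995 in DMSO, 10.95, 10.94 and 11.02 at 0.1 μM, and 10.83, 10.95 and 10.64 at 1.0 μM. The 1.0 μM arrays spread most widely (SD 0.154), and replicate 2 lay at the level of the other groups. The change at 1.0 μM was -0.21, with a 95% interval of -0.38 to -0.04 that is not adjusted for the number of probe sets tested (limma adjusted p = 0.0682). Without that array the change was -0.28 and passed (limma adjusted p = 0.0304). Peg10, a gene derived from a retrotransposon, paternally expressed and needed for the placenta, had 11.74, 11.74 and 11.625 in DMSO, 11.70, 11.73 and 11.69 at 0.1 μM, and 11.61, 11.66 and 11.46 at 1.0 μM. Each 1.0 μM array lay below each 0.1 μM array, and the change at 1.0 μM against DMSO was -0.13 with a 95% interval of -0.26 to 0.01 (limma adjusted p = 0.147).

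Igf2r encodes the receptor that carries IGF2 to lysosomes for breakdown and also sorts lysosomal enzymes. Its log2 signal was 9.96, 10.20 and 10.11 in DMSO, 10.16, 10.18 and 10.11 at 0.1 μM, and 9.98, 10.11 and 10.09 at 1.0 μM, and the 3 groups overlapped. The change was 0.06 at 0.1 μM (95% interval -0.09 to 0.20) and -0.03 at 1.0 μM (95% interval -0.18 to 0.12). These intervals bound the change and do not show that the level was the same.

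**Figure D2:**
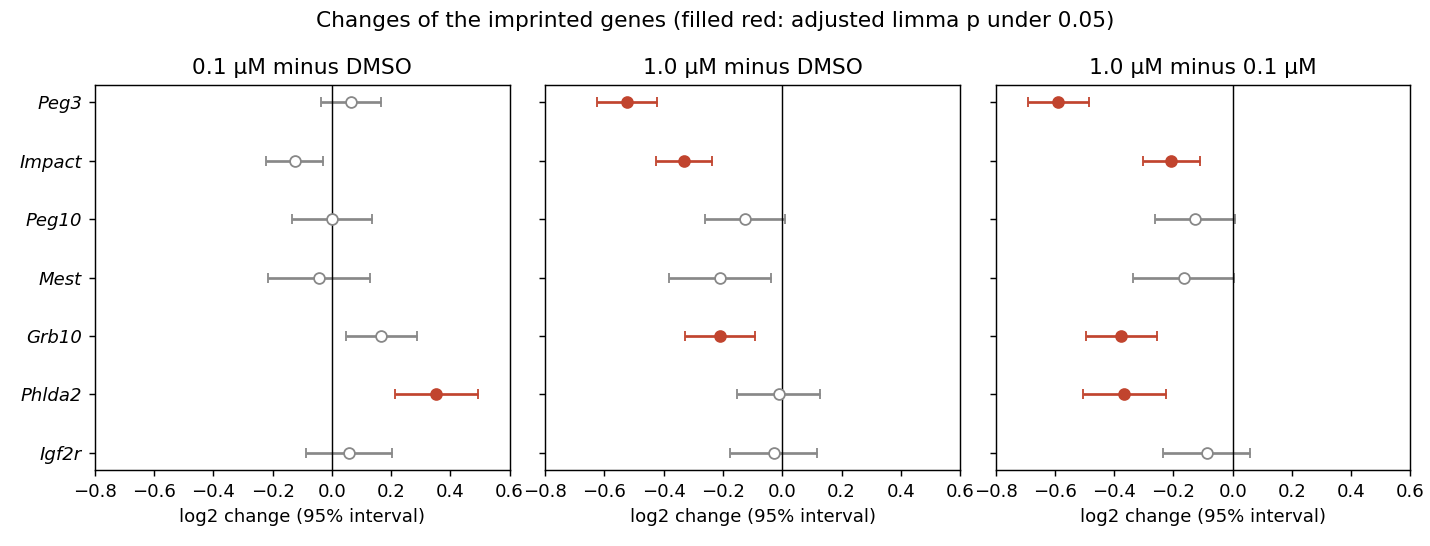
Log2 change of the 7 measured genes for each comparison (0.1 μM against DMSO, 1.0 μM against DMSO and 1.0 μM against 0.1 μM), with 95% intervals from the limma fit and filled points where the adjusted p was under 0.05. Peg3 has the longest fall, 0.52 below 0 at 1.0 μM, and Phlda2 lies 0.35 above 0 at 0.1 μM and near 0 at 1.0 μM.

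The genes were split by the expressed allele known for each, which was not measured in these cells. Of the maternally expressed genes Igf2r, Grb10 and Phlda2, 1 rose at 0.1 μM (4.66% of all probe sets did so). At 1.0 μM 1 of them fell (14.3% did so). Of the paternally expressed genes Peg3, Peg10, Mest and Impact, 2 fell at 1.0 μM, beside the same 14.3%. Arrays at 1.0 μM lay below all DMSO arrays for 3 of 7 genes (20% of all probe sets did so) and below all 0.1 μM arrays for 5 of 7 (28.1% of all probe sets). At 0.1 μM, 2 of 7 lay above all DMSO arrays, as did 17.8% of all probe sets, and 1 of 7 lay below them, as did 15.8%. The median change of the 7 genes was 0.06 at 0.1 μM and -0.21 at 1.0 μM, beside medians near 0 over all tested probe sets (0.0015 and -0.0056).

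The 8 genes whose values followed these most closely over the 9 arrays were found by centring each gene on its own mean and taking the mean absolute difference, among 7866 candidates. Plin3 (0.0371), a lipid droplet coat protein, and Chmp1b (0.0382), a subunit of the ESCRT machinery, were closest to Peg3. Septin10 (0.0227) and Ggps1 (0.0245), which makes geranylgeranyl diphosphate, were closest to Impact. Syce1 (0.0301), a component of the synaptonemal complex, and Dact2 (0.0305) were closest to Grb10, and Hsf2bp (0.0341) and Fbxo16 (0.0433) to Phlda2. Likeness was measured on log2 signals over 9 arrays and is a description only.

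Imprinted genes share control regions with their neighbours, so neighbours listed for the same clusters and within 1 Mb in RefSeq were read beside these genes. Of 28 such neighbours, 13 were measured, and 1 rose at 0.1 μM (7.69%) while 3 rose and 1 fell at 1.0 μM (30.8%). These shares lie near the 6.23% and 27.7% of all probe sets called at the 2 doses. The fall was that of Casd1, 104 kb from Peg10 (-0.25, limma adjusted p = 0.0304). It was lost under some alternatives (adjusted p up to 0.0744), and 1 of 3 arrays at 1.0 μM had Casd1 above the threshold. Sgce, which starts 0.102 kb from Peg10 and shares its control region, rose at 1.0 μM by 0.36 (SE 0.0741, limma adjusted p = 0.00689), whereas the Peg10 change was -0.13. Sgce was dim in DMSO, with 2 of 3 arrays above the threshold (DMSO mean 8.54). Slc22a18, a transporter gene 2.21 kb from Phlda2, rose by 0.60 at 0.1 μM (limma adjusted p = 0.0138) and by 0.38 at 1.0 μM (limma adjusted p = 0.0238), but both calls were lost under some alternatives (adjusted p up to 0.0647 and 0.078) and 1 of its 3 DMSO arrays lay above the threshold (DMSO mean 8.26). Igf2, 72.6 kb from H19, was under the threshold on all 3 DMSO arrays and above it on all 3 arrays at 1.0 μM, so it was tested through the treated arrays. Against the threshold in place of the DMSO signal it was at least 1.299-fold higher at 1.0 μM (limma adjusted p = 0.00425 on the measured values, means 8.40 and 8.84). Cobl, 199 kb from Grb10, changed by 0.21 at 0.1 μM and -0.04 at 1.0 μM, with a direct difference between the doses of -0.25 (limma adjusted p = 0.0123) that was lost without 0.1 μM replicate 1 (adjusted p = 0.0553). For Mrpl23, 34.8 kb from H19, the direct difference was -0.19 (limma adjusted p = 0.0484, up to 0.158 under the alternatives). Copg2, which overlaps Mest on the genome, was lower at 1.0 μM than at 0.1 μM by a change of -0.29 (limma adjusted p = 0.0301), a call lost under some alternatives (adjusted p up to 0.1). The array annotation does not say how overlapping transcripts were kept apart.

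The difference between 4 of these neighbours and the gene beside them was tested on its own, with a further pair joined by function. In each array the log2 signal of the gene was subtracted from that of its neighbour, and groups were set against each other by an exact permutation test, two-sided. With 3 arrays against 3, p cannot go below 0.1. After Benjamini-Hochberg adjustment over the 10 tests run, the tests at that p had an adjusted p of 0.167. Sgce over Peg10 gained 0.29 at 0.1 μM (SE 0.125) and 0.48 at 1.0 μM (SE 0.14), each at that smallest p with no overlap. Sgce was above the threshold on 2 of 3 DMSO arrays, so these gains start from a signal near it. Slc22a18 over Phlda2 gained 0.25 and 0.40, again at the smallest p at both doses, but with Slc22a18 under the threshold on 2 of 3 DMSO arrays these differences rest on a dim baseline. The pair joined by function, the ligand Igf2 and its clearance receptor Igf2r, which lie on different chromosomes, is given no value because no DMSO array had Igf2 above the threshold. Copg2 over Mest changed by 0.10 and -0.03 (exact p = 0.7 and 1). Cobl over Grb10 changed by 0.17 at 1.0 μM (smallest p) and 0.04 at 0.1 μM (exact p = 0.6).

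Beyond these genes, 49 other imprinted genes were listed and 19 were tested, some of which are imprinted only in certain tissues or transcripts. At 0.1 μM 1 rose (5.26%), and at 1.0 μM 6 rose and 1 fell (36.8%), with medians of 0.04 and 0.05, where 6.23% and 27.7% of all probe sets were called. Besides Igf2, Sgce and Slc22a18, the rises at 1.0 μM were those of H13, an intramembrane protease (0.30, limma adjusted p = 0.000823), Slc38a4, an amino acid transporter (0.22, limma adjusted p = 0.00341), and Inpp5f, a phosphoinositide phosphatase (0.31, limma adjusted p = 0.0206). Its DMSO mean of 8.45 lay under the threshold, with 2 of 3 DMSO arrays above it. The Inpp5f call was lost under some alternatives (adjusted p up to 0.0631). Ube3a, a ubiquitin ligase whose maternal copy is the active one in neurons, fell by 0.35 (limma adjusted p = 0.00181). With the 7 genes above, 26 imprinted genes were tested, of which 6 rose and 4 fell at 1.0 μM (38.5%, where 13.4% of all probe sets rose and 14.3% fell). At 1.0 μM, 4 of the 11 paternally expressed genes rose and 2 fell, and 2 of the 15 maternally expressed genes rose and 2 fell. These counts include rises from a dim DMSO signal. Of the paternally expressed genes, Igf2 had no DMSO array above the threshold, and Sgce and Inpp5f each had 2 of 3. The maternally expressed Slc22a18 had 1 of 3.

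**Figure D3:**
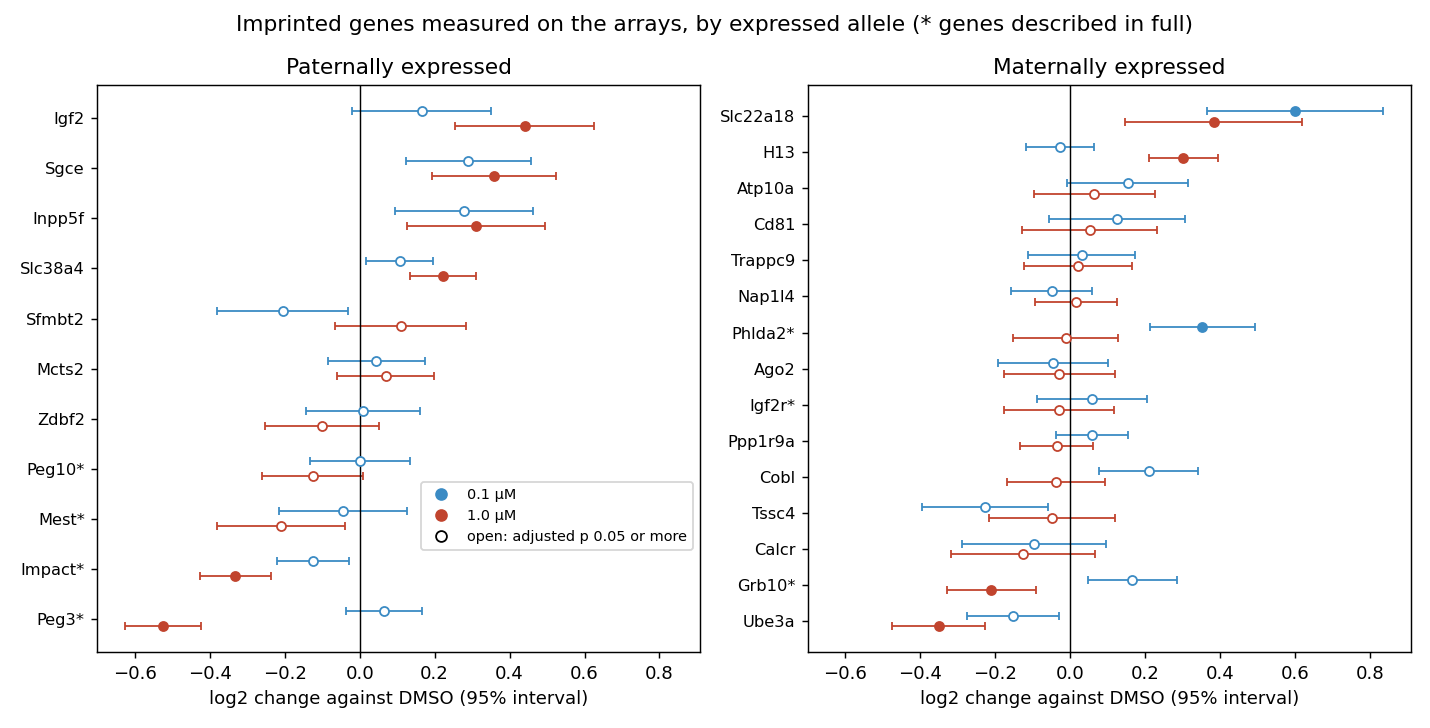
Log2 change against DMSO at 0.1 μM and 1.0 μM for the 26 tested imprinted genes, split by the expressed allele known for each. Intervals are 95% from the limma fit, and points are filled where the adjusted p was under 0.05. In the paternally expressed panel, the filled points at 1.0 μM run from Peg3, 0.52 below 0, to Sgce, 0.36 above 0, and to Igf2, drawn at its measured change although its DMSO arrays lay under the threshold.

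Genes that keep or erase imprints were read next. Of 26 listed, 24 were tested, and at 1.0 μM 3 rose and 6 fell (37.5%), compared with 1 rise and 1 fall at 0.1 μM (8.33%). Over all probe sets 27.7% and 6.23% were called. Dnmt3b, a de novo DNA methyltransferase, fell by 0.61 at 1.0 μM (limma adjusted p = 0.000163) and by 0.28 at 0.1 μM (limma adjusted p = 0.0215), the latter call being lost under some alternatives (adjusted p up to 0.0965). Zfp445, which encodes a zinc finger protein that keeps imprints together with ZFP57, fell by 0.25 at 1.0 μM (limma adjusted p = 0.0116). Atrx, a chromatin remodeller (-0.26), and Cbx5, which encodes HP1α (-0.23), also fell (limma adjusted p = 0.00484 and 0.00304). Uhrf1, which brings DNMT1 to newly copied DNA, rose by 0.30 (limma adjusted p = 0.00471), and Tet1, a 5-methylcytosine dioxygenase, rose by 0.19 (limma adjusted p = 0.00736). Setdb1 passed at 1.0 μM (0.18, limma adjusted p = 0.042) and Tet2 at 0.1 μM (0.21, limma adjusted p = 0.0447), both lost under some alternatives (adjusted p up to 0.135 and 0.17). Zfp57 did not pass, with changes of 0.13 and -0.05, nor did Trim28 (-0.05 and -0.10) or Dnmt1 (-0.05 and 0.09). No DNA methylation was measured in these samples.

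Igf2r and Grb10 act on IGF and insulin signalling, for which 15 of 23 listed genes were tested. At 1.0 μM 5 rose and 4 fell (60%), and 1 rose at 0.1 μM (6.67%), beside 27.7% and 6.23% of all probe sets. The rises include Igf2 and Igfbp4, which were under the threshold on all DMSO arrays and so were tested through the treated arrays. Irs2, an adaptor of both receptors, fell by 0.64 at 1.0 μM (limma adjusted p = 0.00119), and Nedd4, a ubiquitin ligase that binds Grb10, fell by 0.24 (limma adjusted p = 0.00712). Igfbp2, which binds IGFs outside the cell, rose by 0.28 at 0.1 μM (limma adjusted p = 0.0211) and fell by 0.30 at 1.0 μM (limma adjusted p = 0.004). As with Grb10, its direct difference between the doses was negative (-0.58, limma adjusted p = 0.000206). The rise of Igfbp2 and the calls at 1.0 μM of Igf2bp3 (-0.19), Igfbp3 (0.27), Foxo3 (0.20), Igfbp4 and Igf1r (0.23) were lost under some alternatives, with an adjusted p of up to 0.0915 for Igfbp2 and of up to 0.0768 to 0.149 for the others. The 3 arrays at 1.0 μM alone had Igfbp4 above the threshold, at least 1.048-fold over DMSO.

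For Impact, 5 of 10 listed genes of the GCN2 pathway were tested. At 1.0 μM 1 rose and 2 fell (60%, beside 27.7% of all probe sets). Gcn1, which Impact competes for, fell by 0.22 (limma adjusted p = 0.0131). Atf4, the transcription factor induced when GCN2 is active, fell by 0.30 (limma adjusted p = 0.0316), and Ppp1r15a, an ATF4 pathway phosphatase subunit, rose by 0.20 (limma adjusted p = 0.0227), both lost under some alternatives (adjusted p up to 0.102 and 0.0633). Atf4 lay above the threshold on 1 of 3 arrays at 1.0 μM. Eif2ak4, which encodes GCN2, changed by 0.01 and -0.05, and Asns, a target of ATF4, by -0.05 and -0.07, and neither passed. Of 8 genes of lysosomal enzyme sorting, Igf2r's other role, 1 fell at 1.0 μM (12.5%, below the 27.7% of all probe sets), the sorting receptor Sort1 (-0.45, limma adjusted p = 0.00401). M6pr, the other mannose 6-phosphate receptor, changed by 0.03 and 0.10 and did not pass.

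Markers of other cell types were read because imprinted genes differ between lineages. Of 10 trophoblast markers 4 were measured, and their summed linear signal was 4331 to 4711 in DMSO, 5587 to 6160 at 0.1 μM and 5083 to 5793 at 1.0 μM, so both doses lay above DMSO. Within this list Plet1 rose at 0.1 μM (0.75, limma adjusted p = 0.00713), as Phlda2 did, and Tfap2c (0.32) and Krt8 (0.33) rose at 1.0 μM (limma adjusted p = 0.00129 and 0.0129). Tfap2c fell at 0.1 μM (-0.25, limma adjusted p = 0.0164, up to 0.0783 under the alternatives). Plet1 did not pass at 1.0 μM (0.17, limma adjusted p = 0.285), so the markers that rose differed between the doses. Cdx2, Gata3, Elf5 and Eomes, which define the lineage, were not analysed here. The sum was 1661 to 1708, 1731 to 1797 and 1629 to 1664 for 2 of 10 primitive endoderm markers. For 4 of 10 fibroblast markers it was 5832 to 6522, 6095 to 6381 and 5812 to 6532. For 1 of 10 mesoderm and neural markers it was 679.2 to 908.9, 751.5 to 810 and 492.8 to 744.1. A sum gives most weight to the gene of highest signal, which in the fibroblast list was Vim (DMSO mean 12.26). Vim changed by -0.03 and 0.03 and did not pass, so that sum says little of the dimmer fibroblast markers. All 10 pluripotency markers were measured, with sums of 41800 to 42920, 44280 to 44550 and 40530 to 41850. Markers of the cells' label were thus present in every group, but Esrrb among them lay near the threshold. Its group means were 8.61, 8.70 and 8.51, and 2 of 3 arrays at 1.0 μM lay above the threshold. Of the primitive endoderm markers, Dab2 was lower at 1.0 μM than at 0.1 μM (-0.15, limma adjusted p = 0.0414, up to 0.141 under the alternatives). Within the fibroblast list Tagln fell at 1.0 μM (-0.59, limma adjusted p = 0.00178), with 1 of 3 arrays there above the threshold. Cald1 rose at 0.1 μM (0.27, limma adjusted p = 0.0354, up to 0.14 under the alternatives). Thy1, under the threshold on all DMSO arrays, was at least 1.177-fold higher at 0.1 μM (limma adjusted p = 0.0251 on the measured values, up to 0.102 under the alternatives). At 1.0 μM 1 of the pluripotency markers rose, Klf4 (0.77), and 2 fell (30% called, beside 27.7% of all probe sets). Those that fell were Tdgf1 (-0.24, limma adjusted p = 0.00731) and Utf1 (-0.24, limma adjusted p = 0.0148, up to 0.0533 under the alternatives). Against 0.1 μM, Klf4 was higher, and Tdgf1, Utf1, Fgf4 and Esrrb were lower (50% called, beside 29.7%). The Esrrb call was lost under some alternatives (adjusted p up to 0.109). The part of these cell types in the changes of the imprinted genes was not tested.

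Over the whole table, each array had 9469 to 9780 probe sets above the threshold, and array medians were 9.72 to 9.75. The median SD between replicates was 0.0859 in DMSO, 0.0424 at 0.1 μM and 0.0753 at 1.0 μM, and the fit pooled them. For the 7 genes the SD within a group ran from 0.0123 to 0.154 and the SE of a change from 0.0427 to 0.0765, so the number of arrays limits what can be seen. Exactly equal values on more than 1 array occurred in 24.7% of the probe sets, among them Igf2r (10.11 on 3 arrays) and Mest (10.95 on 3 arrays).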

How the data were processed

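The authors extracted total RNA, hybridised 9 Affymetrix Mouse Gene 2.0 ST arrays and processed them by RMA in Affymetrix Expression Console. The deposited table gives a log2 signal for each of 10476 probe sets and was used unchanged. RMA pulls all arrays to a common distribution, so a shift of all genes together cannot be seen. Genes were named from the platform annotation. Groups came from the sample labels. Probe sets over 8.46 on at least 3 of 9 arrays (9911) entered 1 limma model of the 3 groups (version 3.58.1, with R 4.3.3). P values were adjusted by Benjamini-Hochberg across every tested probe set, at a threshold of 0.05, and "rose" and "fell" are used at that threshold. Intervals are 95% and unadjusted. A gene under the threshold on all arrays of DMSO is given as at least the fold of the treated mean over the threshold.

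The 10 genes and all gene lists were chosen with earlier results of these data known. Named genes are all members, up to 8 called genes of each list by F, and the 2 closest patterns for each member passing F. Zfp57, Trim28, Dnmt1, Eif2ak4, Asns, M6pr, Igf1r, Arid4b and Dnmt3a, where named, lie outside this rule and were chosen after their values were seen. Alternatives were other filters, 2-group fits, the replicate block, quantile normalization, centring, array weights, trend and robust eBayes, a one-way test without moderation, a 1.5-fold threshold, an adjusted p under 0.1 and leaving out each array. Scripts were tested on simulated data. Promoters came from RefSeq on GRCm38.p6, and figures from matplotlib 3.10.9.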

Additional observations from a re-analysis of the deposited data

Results flagged for a closer look

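The effects of the doses differed by the direct limma contrast for 4 of the 7 measured imprinted genes. Over all probe sets 29.7% were called in this contrast and 17.4% were lower. The change at 1.0 μM minus the change at 0.1 μM was -0.59 for Peg3, -0.38 for Grb10, -0.37 for Phlda2 and -0.21 for Impact on the log2 scale. Both changes use the same DMSO arrays, which cancel in this difference. For Peg3, Impact and Grb10 the lower value at 1.0 μM was also called against DMSO, though the Grb10 call was lost when those 2 groups were fitted alone. For Phlda2 the difference came with a rise at 0.1 μM, and for Grb10 with opposite signs at the 2 doses, of which the change at 0.1 μM did not pass.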

How the results depend on the processing

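The calls at 1.0 μM of Peg3 and Impact, and the differences between the doses of Peg3, Grb10, Phlda2 and Impact, passed under every alternative fit at an adjusted p of 0.05 and without each array in turn. Of the 7 genes, 1 was called at 0.1 μM, and 3 were with array weights, 2 at an adjusted p under 0.1, 0 without moderation and 0 past 1.5-fold, and 0 to 2 leaving out single arrays. With array weights Impact also passed at 0.1 μM (adjusted p = 0.0244). At 1.0 μM 3 genes were called, 0 past 1.5-fold and 3 to 4 leaving out single arrays; against 0.1 μM 4 were called, 1 past 1.5-fold and 4 to 4 leaving out arrays. By F 4 were called, and 4 to 5 leaving out arrays.

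Over all probe sets, 617 were called at 0.1 μM, compared with 1399 with array weights, 275 without moderation, 70 past 1.5-fold, 1326 at an adjusted p under 0.1 and 143 to 778 leaving out arrays. At 1.0 μM 2744 were called, 1709 with the 2 groups alone, 294 past 1.5-fold and 1939 to 2756 leaving out arrays. Between the doses 2947 were called, 5048 with array weights, 284 past 1.5-fold and 1790 to 3234 leaving out arrays, and by F 3500, 5500 with array weights and 2333 to 3620 leaving out arrays. The cause was not tested.

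Signs turned only for changes near 0 that did not pass: Peg10 at 0.1 μM was -0.0060 with arrays centred and -0.038 to 0.0214 leaving out arrays, Phlda2 at 1.0 μM 0.0042 with array weights and -0.0679 to 0.0373, Igf2r at 0.1 μM -0.0069 to 0.1133 and at 1.0 μM -0.0944 to 0.0258. Of 72 calls of genes in the other lists, 34 held under all alternatives, 38 were lost in at least 1 and 0 changed sign. Whether the replicate numbers pair the samples was not settled. Deviations from the group means correlated above 0.1 in 4 of 9 same-numbered pairs (range -0.0233 to 0.51), and different-numbered pairs were not compared. With the replicate block 1, 3 and 4 of the 7 genes were called at 0.1 μM, at 1.0 μM and between the doses, and 810 probe sets at 0.1 μM, beside 617 without the block. No gene had other probe sets of its own, so that alternative could not be run. Depth on an array is signal over background, and 3 of the 10 genes had no value of their own.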
